A study of Mus musculus with 28 samples.

Results

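The 5 lymphatic vessel genes Prox1, Flt4, Lyve1, Vegfc and Mmrn1 were followed through the healing of a skin wound in mice. They were chosen by name as transcripts of lymphatic vessels and of the signal that makes these vessels grow, and they are 5 of the 29068 gene symbols in the table of counts. All 5 passed the filter on low counts, as did 18107 genes in all. The samples were skin (label: skin) of C57BL/6J mice, MLKL+/+ in the study's terms, under the treatment label Natural wound healing. There were 28 libraries of total RNA, 4 at each of days 0, 3, 5, 7, 10, 12 and 14, with day 0 as the control. Mice of both sexes, littermates aged 8 weeks, received a 6-mm punch wound through the back skin down to the fascia, and the whole wound site was taken with its scab and epithelial margins. The series' description counts days from the injury and makes day 0 the control, whereas the study's captions take the day of wounding as day 1. Neither says whether the day 0 group holds intact or freshly wounded skin. No other treatment, transgene or deletion was part of these groups, and the labels do not tie libraries to animals.

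Lymphatic vessels drain fluid and immune cells from the dermis. Their endothelial cells are set apart from those of blood vessels by the transcription factor Prox1, and they grow towards the growth factor VEGF-C, the product of Vegfc, which activates the receptor tyrosine kinase VEGFR-3, the product of Flt4. Lyve1 encodes a hyaluronan receptor found on lymphatic capillaries and also on a class of resident macrophages. Mmrn1 encodes multimerin 1, a large secreted glycoprotein of lymphatic endothelium that platelets also store. In a wound, blood vessels sprout early into the granulation tissue, and lymphatic vessels are known to grow in later.

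On the mouse build GRCm38 (mm10, the build in the submitters' processing notes) the GENCODE annotation places Prox1 at chr1:190118035-190170714 on the minus strand and Flt4 at chr11:49609263-49652739 on the plus strand. Lyve1 lies at chr7:110850607-110863239 (minus), Vegfc at chr8:54077606-54187096 (plus) and Mmrn1 at chr6:60924976-60989378 (plus), and all 5 are protein coding. Prox1 overlaps the antisense gene Prox1os over 419 bases, of which 133 are exonic, and Gm28172 over 964 bases, none of them exonic. The strand setting of the counting is not given in the sources used here, but Prox1os itself had only 0 to 7 counts in a library. Prox1 and Mmrn1 are shown with the 250 bases before their RefSeq start (GRCm38.p6, 5′ to 3′ on the gene's strand), because both transcripts were called lower than day 0 on days 3, 5, 7, 10 and 14 and neither was called on day 12. Capitals mark AACAAT or its reverse complement, as SOX letters, and TTCCTG or its reverse complement, as ETS letters. Each is a single form of the short recognition letters of a transcription factor family used by endothelial cells.
Prox1, chr1:190170828-190171077, minus strand: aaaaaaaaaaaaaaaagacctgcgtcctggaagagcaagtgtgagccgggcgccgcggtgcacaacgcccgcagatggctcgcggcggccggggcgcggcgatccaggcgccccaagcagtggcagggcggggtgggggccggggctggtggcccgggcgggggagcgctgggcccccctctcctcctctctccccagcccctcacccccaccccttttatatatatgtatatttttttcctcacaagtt
Mmrn1, chr6:60944067-60944316, plus strand: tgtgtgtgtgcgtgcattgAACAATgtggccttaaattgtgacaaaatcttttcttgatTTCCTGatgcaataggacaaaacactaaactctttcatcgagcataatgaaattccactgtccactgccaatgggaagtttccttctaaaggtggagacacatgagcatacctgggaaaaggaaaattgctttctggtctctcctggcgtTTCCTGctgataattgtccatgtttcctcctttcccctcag
The Prox1 window held neither of these forms and had a GC content of 64.8%, whereas the Mmrn1 window held 1 SOX and 2 ETS matches and had a GC content of 42.4%. Of 32851 mouse promoter windows of this length, 9.42% held the SOX letters and 25.7% the ETS letters. The windows thus shared neither base composition nor these exact letters. Shorter forms such as GGAA were not counted, and the Prox1 window holds GGAA and its reverse complement TTCC. The Mmrn1 window lies inside the longer GENCODE gene model, which starts farther upstream, and the Prox1 window lies upstream of its gene. The Mmrn1 window is thus upstream of the RefSeq start only. Overlap of the windows with annotated exons was not examined. RefSeq lists 2 starts for Prox1, and the farther upstream was used.

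Each library had 36706513 to 40655764 counts on genes. The keratinocyte transcripts Krt5 (37014 counts or more) and Krt14 (33091 or more) and the endothelial transcript Pecam1 (5238 or more) were abundant in every library. The day 0 libraries differed among themselves far more than those of the other days, with a biological coefficient of variation of 26.4% against 5.70% to 10.8%. This spread also ran through the 5 genes, whose summed level was 132.6 and 92.4 CPM (counts scaled to a common library total) in day 0 replicates 1 and 4 but 202.6 and 195.8 CPM in replicates 2 and 3. Beside this, the summed level of 6 fibroblast markers was 24995 and 14282 CPM in replicates 1 and 4 and 55955 and 53718 CPM in replicates 2 and 3, and 7 skeletal muscle markers summed to 30322 and 31738 against 18077 and 18382 CPM. Endothelial markers differed little, from 768 to 911 CPM. The part of this unequal composition in the results against day 0 was not tested, and the fold changes of the 5 genes, their counts and the ratios between transcripts were therefore also computed with each pair of day 0 libraries alone, a comparison added after the data were seen. Fold changes between wound days do not use day 0, but their standard errors and p-values come from a spread shared by all 28 libraries, so that the calls are also given from a fit of the 24 wound libraries alone, likewise added after the data were seen.

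FPKM (fragments scaled by gene length and library total) allows levels to be compared between genes. On this scale Lyve1 was the most abundant of the 5 on day 0 (19.8 ± 8.14, mean ± SD, n = 4), followed by Mmrn1 (12.6 ± 4.55), Flt4 (4.47 ± 1.14), Vegfc (4.07 ± 1.26) and Prox1 (1.00 ± 0.13). The ratio of the highest to the lowest daily mean of FPKM was 5.23 in Mmrn1, 5.15 in Lyve1 and 4.08 in Prox1. It was smaller in Flt4 (2.38) and in Vegfc (2.01). No library was without counts of any of the 5 genes, and the fewest were 77 counts of Prox1 on day 5. In whole tissue, fewer lymphatic cells and less RNA per cell cannot be told apart.

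**Figure D1:**
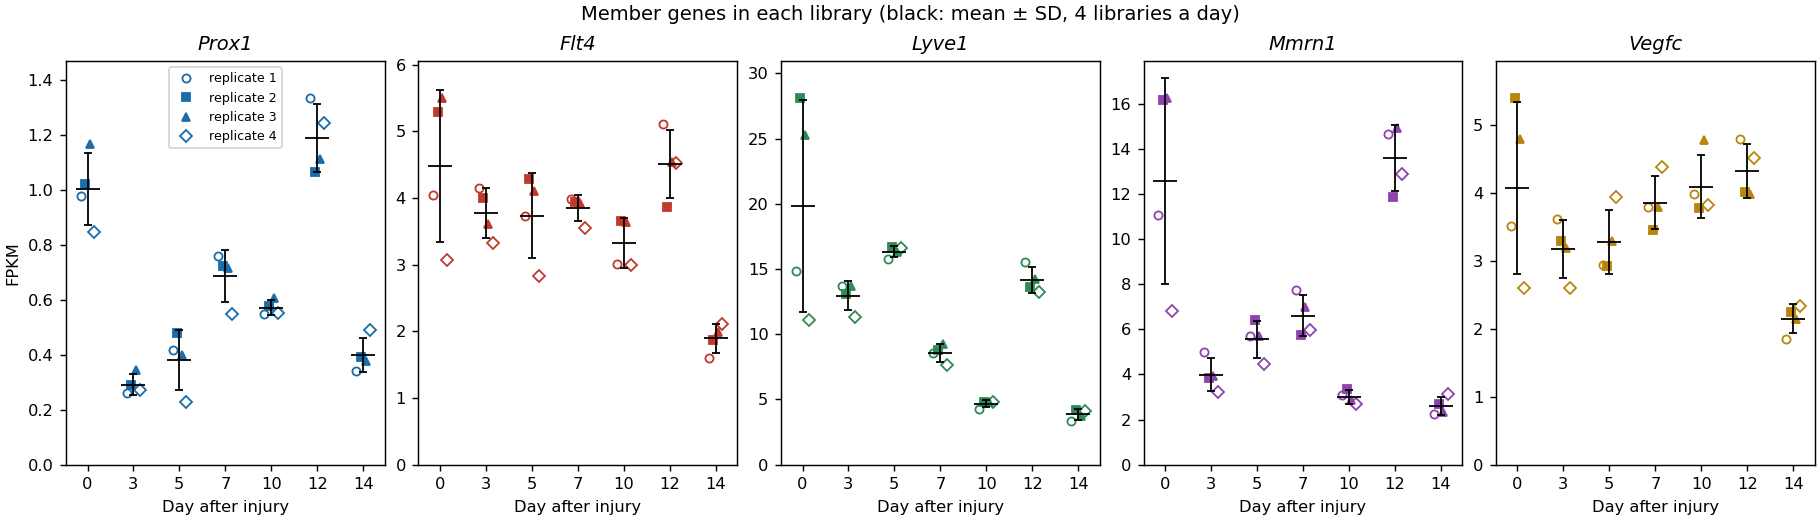
FPKM of each of the 5 genes in each of the 28 libraries against the day after injury. Symbols give the replicate number and black bars the mean ± SD of 4 libraries. Prox1 and Mmrn1 are low on days 3 to 10, high on day 12 and low on day 14, and all 5 genes are lower on day 14 than on day 12 in every library.

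The test of each wound day against day 0 was the quasi-likelihood test of edgeR, and p-values were adjusted after Benjamini and Hochberg for 18107 genes. A gene was called at an adjusted p under 0.05. A large share of all transcripts differed from day 0. Each count of the 5 genes is therefore given with the share of all tested genes called in the same direction. On day 3, 3 of the 5 genes were lower (34.8% of all genes were lower and 31.8% higher), and on day 5, 2 were lower (30.6% lower and 29% higher). On day 7, 3 were lower (24.8% lower and 25.6% higher), and on day 10, 4 were lower (26.9% lower and 23.5% higher). On day 12 only Lyve1 was lower (25.6% lower and 21.7% higher), and on day 14 all 5 were lower (34.5% lower and 28.2% higher). None of the 5 was higher than on day 0 on any day, by edgeR at an adjusted or unadjusted p under 0.05, by DESeq2 or by limma. Scaling by library totals alone in place of TMM moved the median of all genes by 0.14 (log2) on day 12 and 0.13 on day 14, with 67.4% in place of 45.8% and 56.2% in place of 45.0% of all calls higher, and left the counts of the 5 genes on these 2 days as they were.

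The study's methods set stricter criteria, a log2 change beyond 1.5 with P under 0.05 before adjustment. By these, Prox1 and Mmrn1 were lower on day 3 (12.4% of all genes) and Lyve1 and Mmrn1 on day 10 (5.14%) and day 14 (8.83%). None of the 5 met these criteria on day 5, 7 or 12 (8.31%, 4.74% and 3.51% of all genes). The pairs of day 0 libraries differ in the summed level of these same genes, which was higher in replicates 2 and 3. More lower calls with that pair were therefore fixed in advance, and each pair leaves out part of the day 0 spread. With day 0 replicates 2 and 3 alone as the control, the numbers called lower on days 3, 5, 7, 10, 12 and 14 were 5, 5, 5, 5, 4 and 5, beside 32.6%, 28.5%, 22.3%, 24.8%, 24.3% and 32.7% of all genes tested in that fit. With replicates 1 and 4 alone they were 2, 2, 2, 3, 0 and 5, beside 29.5%, 28.1%, 24.6%, 24.9%, 22% and 26.9% of all genes. In that fit 1 gene was higher on day 5 (Lyve1, with 28.7% of all genes) and 1 on day 12 (Mmrn1, with 21.5%). Leaving out day 0 replicate 4 by itself raised the number lower from 3 to 5 on day 3 (31.6% of all genes) and from 2 to 5 on day 5 (28.8%). Calls that were lower with all 4 and with either pair of day 0 libraries were those of Prox1 on days 3, 5, 10 and 14, of Mmrn1 on days 3, 5, 7, 10 and 14, of Lyve1 on days 7, 10 and 14, and of Flt4 and Vegfc on day 14.

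**Figure D2:**
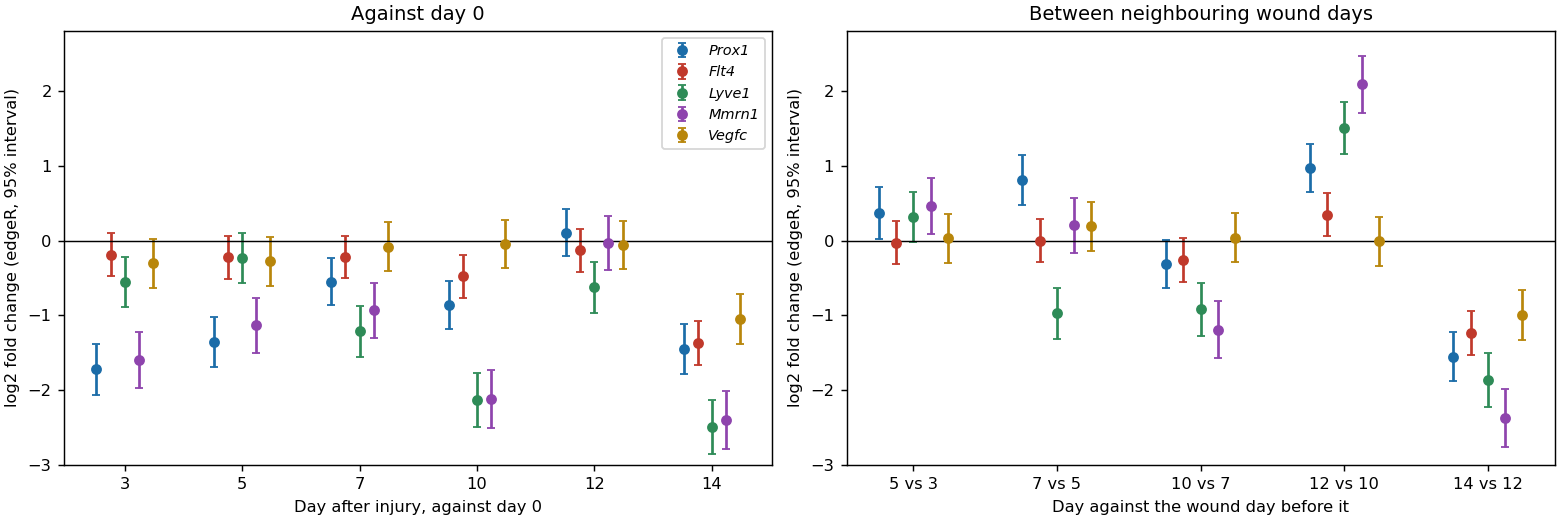
Log2 fold change of the 5 genes with its 95% interval (edgeR), on each wound day against day 0 (left) and between neighbouring wound days (right), 4 libraries a day. Intervals of Prox1, Lyve1 and Mmrn1 lie above 0 for day 12 against day 10, and those of all 5 genes lie below 0 for day 14 against day 12.

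Vegfc, the ligand, had no called change in the fit with TMM until day 14, when it was lower. The day 0 libraries had 3.51, 5.40, 4.79 and 2.59 FPKM (replicates 1 to 4), and on days 3 to 12 the 20 libraries lay between 2.60 and 4.79. Day 14 had 1.85, 2.25, 2.15 and 2.34 FPKM, below every library of every other day. Its log2 fold change against day 0 was -1.05 ± 0.164 (SE) on day 14 (2.07-fold lower, edgeR adjusted p = 3.04e-06). Between days 12 and 14 it fell by 0.99 ± 0.164 on the log2 scale (adjusted p = 1.77e-05). On the other wound days its log2 fold change lay between -0.31 and -0.048 and was not called, and those of days 10 and 12 were 0.0043 and 0.084 when libraries were scaled by their totals alone. Day 3 was called lower with that scaling (-0.36, edgeR adjusted p = 0.0492) and with upper quartile normalization (-0.40, adjusted p = 0.0362). With day 0 replicate 4 left out, the values of day 3 (-0.42, adjusted p = 0.0112) and day 5 (-0.43, adjusted p = 0.0115) passed the threshold. With day 0 replicates 2 and 3 alone it was lower on all 6 days, at -0.36 on day 10 for example, and with replicates 1 and 4 alone it was lower on day 14 only (-0.56 against -1.37 with the other pair), with values of 0.15 to 0.37 on the other days. The direction of Vegfc before day 14 thus depended on which day 0 libraries were used.

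Flt4, the receptor for VEGF-C, was called lower on day 10 by a small amount and on day 14 by a larger one. Day 0 had 4.04, 5.29, 5.50 and 3.07 FPKM, day 7 had 3.99, 3.93, 3.92 and 3.55, the last apart from the others, day 10 had 3.01, 3.66, 3.64 and 3.00, and day 12 had 5.10, 3.86, 4.54 and 4.52. On day 14 the libraries had 1.60, 1.88, 1.99 and 2.11 FPKM, and none reached the lowest library of another day (2.84 on day 5). Ordered by mean level, neighbouring days overlapped except for the step from day 10 to day 14. Against day 0, Flt4 was 2.58-fold lower on day 14 (log2 fold change -1.37 ± 0.145, edgeR adjusted p = 4.37e-09; -0.96 with day 0 replicates 1 and 4 alone and -1.63 with replicates 2 and 3 alone) and 1.40-fold lower on day 10 (-0.48 ± 0.141, adjusted p = 0.00555). The libraries of days 0 and 10 overlapped (exact two-sided permutation test, p = 0.114, 4 against 4), and the day 10 call was lost in a fit of the 8 libraries alone (-0.47, adjusted p = 0.0668) and with day 0 replicates 1 and 4 alone (-0.15, adjusted p = 0.392). Days 3, 5, 7 and 12 gave log2 fold changes of -0.22 to -0.13, not called, the last of them 0.0095 when libraries were scaled by their totals alone. Without day 0 replicate 4, those of day 3 (-0.28, adjusted p = 0.0433), day 5 (-0.35, adjusted p = 0.0155) and day 7 (-0.37, adjusted p = 0.0155) passed the threshold. From day 12 to day 14 Flt4 fell by 1.23 ± 0.144 (adjusted p = 1.07e-07). From day 10 to day 12 its log2 change of 0.35 ± 0.14 just missed the threshold (adjusted p = 0.0503), which it passed in the fit of the 24 wound libraries alone (0.35, adjusted p = 0.00766), without day 10 replicate 3 (0.41, adjusted p = 0.0407), without day 12 replicate 2 (0.42, adjusted p = 0.0317) and with the replicate number as a block (0.36, adjusted p = 0.0263).

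Prox1, the transcription factor that sets lymphatic endothelial identity, was low on day 3, the first wound day with libraries. It rose from day 5 to day 7 and from day 10 to day 12, and was low again on day 14. Day 0 had 0.977, 1.02, 1.16 and 0.846 FPKM, and day 3 had 0.260, 0.289, 0.345 and 0.271, without overlap. Day 5 had 0.418, 0.479, 0.398 and 0.228 FPKM and day 7 0.760, 0.721, 0.715 and 0.547, the last of which stood apart from the other 3. On day 12 the libraries had 1.33, 1.06, 1.11 and 1.24 FPKM, and on day 14 they were back at 0.341, 0.391, 0.379 and 0.488. Ordered by mean level the days ran 12, 0, 7, 10, 14, 5 and 3, and neighbours overlapped except between days 0 and 7 and between days 10 and 14.

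Against day 0, Prox1 was 3.30-fold lower on day 3 (log2 fold change -1.72 ± 0.165, edgeR adjusted p = 4.37e-10) and 2.56-fold lower on day 5 (-1.36 ± 0.161, adjusted p = 3.61e-08). It was 1.46-fold lower on day 7 (-0.55 ± 0.155, adjusted p = 0.0043) and 1.82-fold lower on day 10 (-0.87 ± 0.157, adjusted p = 4.17e-05). With day 0 replicates 1 and 4 alone the day 7 value was -0.42 (adjusted p = 0.0532). On day 12 its difference from day 0 was not called (0.10 ± 0.153, 95% interval -0.21 to 0.42, and -0.015 with day 0 replicates 2 and 3 alone), and on day 14 it was 2.74-fold lower (-1.45 ± 0.161, adjusted p = 9.9e-09). Its steps between wound days that passed the test were a rise from day 5 to day 7 (0.81 ± 0.162, adjusted p = 0.000331), a rise from day 10 to day 12 (0.97 ± 0.157, adjusted p = 1.34e-05) and a fall from day 12 to day 14 (-1.56 ± 0.161, adjusted p = 1.2e-08). The change from day 3 to day 5 (0.37 ± 0.169, adjusted p = 0.117) was called without day 5 replicate 4 (0.54, adjusted p = 0.00696) but not from the 24 wound libraries alone (adjusted p = 0.0948). The lower level of day 10 against day 7 was not called (-0.32 ± 0.158, edgeR adjusted p = 0.133).

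Mmrn1, the secreted glycoprotein, swung widely over the time course. Its libraries had 11.0, 16.2, 16.3 and 6.80 FPKM on day 0 and 4.98, 3.82, 3.94 and 3.22 on day 3. Day 10 had 3.08, 3.36, 2.87 and 2.68 FPKM, day 12 had 14.7, 11.9, 14.9 and 12.9, and day 14 had 2.23, 2.68, 2.35 and 3.12. Day 12 thus lay within the range of day 0, and days 10 and 14 were low in every library. Against day 0 it was 3.03-fold lower on day 3 (-1.60 ± 0.183, edgeR adjusted p = 1.43e-08), 4.36-fold lower on day 10 (-2.12 ± 0.187, adjusted p = 3.17e-10) and 5.30-fold lower on day 14 (-2.41 ± 0.19, adjusted p = 1.53e-11). Days 5 (-1.14) and 7 (-0.93) were also called lower, although on day 7 the libraries overlapped with those of day 0. On days 3, 7, 10 and 14 its log2 values were -1.06, -0.45, -1.63 and -1.84 with day 0 replicates 1 and 4 alone and -1.96, -1.29, -2.48 and -2.77 with replicates 2 and 3 alone. On day 12 its value was -0.033 ± 0.176 with all day 0 libraries (95% interval -0.39 to 0.33), 0.11 when scaled by library totals alone, -0.39 (adjusted p = 0.0111) with day 0 replicates 2 and 3 alone and 0.47 (adjusted p = 0.0197) with replicates 1 and 4 alone.

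Between day 10 and day 12 Mmrn1 rose 4.26-fold (2.09 ± 0.187, edgeR adjusted p = 6.33e-10), and from day 12 to day 14 it fell 5.18-fold (-2.37 ± 0.19, adjusted p = 1.23e-10). It also fell 2.28-fold from day 7 to day 10 (-1.19 ± 0.185, adjusted p = 1.23e-05). From day 3 to day 5 the value of 0.46 ± 0.183 (adjusted p = 0.0655) was not called, but it was called from the 24 wound libraries alone (adjusted p = 0.00247), without day 3 replicate 1 (0.54, adjusted p = 0.0453) and without day 5 replicate 4 (0.55, adjusted p = 0.0378). Since platelets store the protein, 6 platelet markers (Pf4, Ppbp, Itga2b, Gp9, Gp1ba and Gp6) were summed as well. They were highest on days 3 and 5 (294 to 303 and 218 to 272 CPM), when Mmrn1 was low, and lay at 51.4 to 66.6 CPM on day 12 and 51.6 to 62.2 CPM on day 10, between which Mmrn1 rose. On day 0 they summed to 60.4 to 91.8 CPM, with no count of Gp6, and on days 7 and 14 to 101 to 109 and 20.0 to 21.5 CPM. Of the 5 platelet genes tested, 4 were higher than day 0 on day 3 and from day 10 to day 12 Ppbp and Gp9 fell and 3 were not called.

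Lyve1, the hyaluronan receptor, was high on days 5 and 12 and low on days 10 and 14. Day 0 had 14.9, 28.1, 25.3 and 11.1 FPKM, the widest spread of the 5 genes (2.53-fold). Day 3 had 13.7, 13.1, 13.7 and 11.3 FPKM, day 5 had 15.7, 16.7, 16.3 and 16.6, and day 7 had 8.55, 8.77, 9.25 and 7.65. Day 10 had 4.27, 4.80, 4.84 and 4.84 FPKM, day 12 had 15.6, 13.6, 14.3 and 13.3, and day 14 had 3.35, 4.20, 3.73 and 4.14. Its wound days were tight, and days 5 and 12 stood above days 7, 10 and 14 in every library. Lyve1 was 2.32-fold lower than day 0 on day 7 (-1.22 ± 0.167, edgeR adjusted p = 6.68e-07), 4.39-fold lower on day 10 (-2.13 ± 0.174, adjusted p = 6.53e-11) and 5.63-fold lower on day 14 (-2.49 ± 0.177, adjusted p = 1.8e-12). The size depended on day 0, since the log2 values of these 3 days were -0.61, -1.53 and -1.81 with day 0 replicates 1 and 4 alone and -1.64, -2.56 and -2.91 with replicates 2 and 3 alone.

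Lyve1 was also called lower on days 3 (-0.56 ± 0.164, edgeR adjusted p = 0.00392) and 12 (-0.63 ± 0.164, adjusted p = 0.00241). The libraries overlapped on both days (exact two-sided permutation tests, p = 0.286 and 0.229, 4 against 4). The calls were lost with day 0 replicates 1 and 4 alone (0.096 and -0.0059), and in fits of the 8 libraries alone, where the values were no smaller (-0.59 and -0.63, adjusted p = 0.0828 and 0.0923). The day 12 call was also lost by limma on log2(FPKM + 1) (-0.37, adjusted p = 0.0622) and on log2(FPKM + 0.1) (-0.38, adjusted p = 0.0653). Without day 0 replicate 2 the values were -0.34 and -0.41, and both calls were kept (adjusted p = 0.0471 and 0.0275). On day 5 the value was -0.24 with all day 0 libraries (not called), -0.43 without day 0 replicate 4 (adjusted p = 0.00431), -0.66 with replicates 2 and 3 alone and 0.38 (adjusted p = 0.00256) with replicates 1 and 4 alone. From day 3 to day 5 every library of the later day was above those of the earlier one, and the log2 change of 0.32 was not called in the fit of all libraries (adjusted p = 0.167) but was called from the 24 wound libraries alone (adjusted p = 0.000859). Lyve1 fell from day 5 to day 7 (-0.98 ± 0.166, adjusted p = 4.6e-05) and from day 7 to day 10 (-0.92 ± 0.172, adjusted p = 0.000136). It rose 2.84-fold from day 10 to day 12 (1.51 ± 0.172, adjusted p = 5.26e-08) and fell 3.64-fold from day 12 to day 14 (-1.86 ± 0.175, adjusted p = 2.14e-09).

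All 5 genes differed among the 6 wound days in a joint test (edgeR F of 9.96 for Vegfc to 53.0 for Lyve1, largest adjusted p = 3.43e-05), as did 85.1% of all genes tested. From day 3 to day 5 none of the 5 was called, 2 (Prox1 and Mmrn1) had an unadjusted p under 0.05 by edgeR, and 12.9% of all genes were higher and 11.4% lower. From day 5 to day 7, 1 was higher (Prox1; 13.9% of all genes) and 1 lower (Lyve1; 14.6%), and from day 7 to day 10, 2 were lower (Lyve1 and Mmrn1; 18% of all genes lower, 14.3% higher). From day 10 to day 12, 3 were higher (Prox1, Lyve1 and Mmrn1; 18.7% of all genes) and none lower (20.7%), at an adjusted or unadjusted p under 0.05, and Flt4 was higher at an unadjusted p under 0.05 only (edgeR unadjusted p = 0.0198). From day 12 to day 14 all 5 were lower (25.3% of all genes lower, 19.9% higher). In the fit of the 24 wound libraries alone, 2 were higher from day 3 to day 5 (Lyve1 and Mmrn1; 16.5% of all genes higher, 15.3% lower), 1 was higher and 1 lower to day 7 (17.5% and 17.9%), 2 were lower to day 10 (21.4%, with 18.1% higher), 4 were higher to day 12 (21.5%, with 24.1% lower) and 5 lower to day 14 (28.7%, with 22.8% higher). The rise to and the fall from day 12 rest on the 4 libraries of that day. Between day 3 and day 14, both days of low Prox1, the difference in Prox1 did not pass the test (0.27, adjusted p = 0.159), whereas Flt4 (-1.18), Lyve1 (-1.93), Vegfc (-0.75) and Mmrn1 (-0.81) were lower on day 14, as were 32.8% of all genes.

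Set against transcripts of the endothelium as a whole, Prox1, Flt4, Lyve1 and Mmrn1 were lower than day 0 on every wound day but day 12. Pecam1 and Cdh5, adhesion molecules of all endothelial cells, were higher than day 0 on days 3 to 10 (Pecam1 by 0.70, 0.68, 0.28 and 0.32 and Cdh5 by 1.23, 1.12, 0.77 and 0.78 on the log2 scale, all called by edgeR). The ratio of each transcript to their geometric mean was compared with day 0 by an exact two-sided permutation test, 4 libraries against 4, with adjustment over the 54 ratio comparisons made, where the smallest possible p is 0.0286 and the smallest adjusted p 0.0406. Prox1 relative to Pecam1 and Cdh5 was lower 6.47-fold on day 3, 4.92-fold on day 5, 2.10-fold on day 7, 2.66-fold on day 10 and 2.32-fold on day 14 (exact adjusted p = 0.0406 each). Mmrn1 was lower 5.67-fold on day 3 and 6.06-fold on day 10, Lyve1 2.70-fold on day 3 and 6.03-fold on day 10, and Flt4 2.19-fold on day 3 and 2.01-fold on day 10. All 4 transcripts were lower relative to the geometric mean of the endothelial genes on days 3, 5, 7, 10 and 14, without overlap between the libraries. On day 12, Prox1 was 1.22-fold higher (exact adjusted p = 0.0406), and the log2 ratios of Flt4 (0.084), Mmrn1 (0.23) and Lyve1 (-0.34) did not pass the test (adjusted p = 0.605, 0.460 and 0.351). The Prox1 call of day 12 was lost in 4 of 8 runs with 1 library left out (exact permutation, unadjusted p up to 0.0571). These ratios do not depend on the scaling between libraries. With day 0 replicates 2 and 3 or 1 and 4 alone, too few libraries for a test, the 20 ratios of days 3, 5, 7, 10 and 14 were lower with either pair. The range was narrow for Prox1, at 6.51-fold and 6.42-fold on day 3, and wider for Lyve1, at 3.58-fold and 2.04-fold, Mmrn1, at 7.14-fold and 4.51-fold, and Flt4, at 2.49-fold and 1.92-fold. On day 12 Prox1 was higher with either pair (log2 0.28 and 0.30), and the other 3 ratios changed sign between the pairs.

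**Figure D3:**
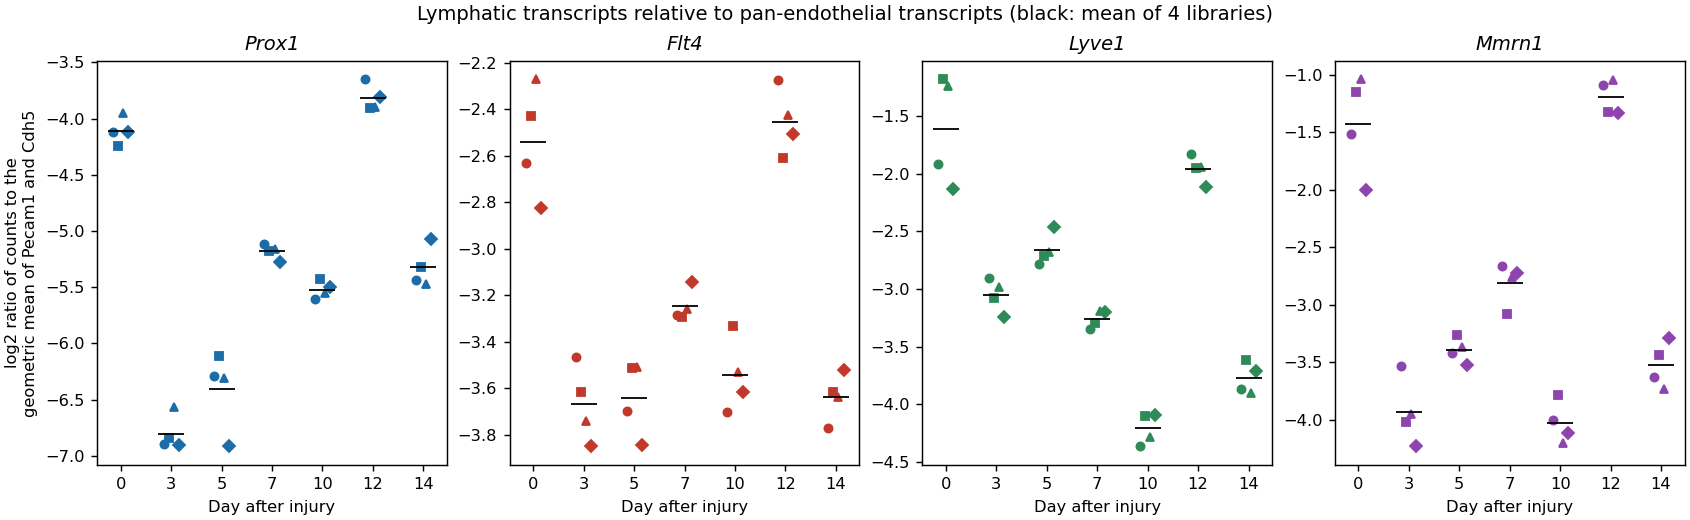
Log2 ratio of the counts of Prox1, Flt4, Lyve1 and Mmrn1 to the geometric mean of Pecam1 and Cdh5 counts in each library, by day after injury. Circles, squares, triangles and diamonds are replicates 1 to 4 and black bars the mean of 4 libraries. In every gene the libraries of days 3 to 10 and of day 14 lie below all day 0 libraries, and day 12 lies near day 0.

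The broader endothelial list fell from day 10 to day 12, when Prox1, Lyve1 and Mmrn1 rose. Of 10 endothelial markers, 7, 7, 6 and 6 were higher than day 0 on days 3, 5, 7 and 10, and 2, 1, 1 and 0 were lower. On day 12 none was higher and 7 were lower, on day 14 none was higher and 5 were lower, and from day 10 to day 12 all 10 fell. From day 12 to day 14, when the 5 genes fell, 3 of the 10 were higher, 3 were lower and 4 were not called. Their summed level was 1207 to 1299 CPM on day 3, 1016 to 1184 CPM on day 10, 664 to 751 CPM on day 12 and 637 to 747 CPM on day 14.

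Within the group, the transcripts did not change in proportion. Flt4 rose relative to Prox1 2.95-fold on day 3, 2.29-fold on day 5, 1.29-fold on day 7 and 1.33-fold on day 10 (exact permutation, adjusted p = 0.0406 each), and on days 12 and 14 the ratio did not pass the test (log2 -0.21 and 0.12). The ratio of Mmrn1 to Prox1 was not called on days 3, 5, 7 and 12 (log2 difference from day 0 of -0.31 to 0.33) and Mmrn1 was lower relative to Prox1 on day 10 (2.27-fold) and day 14 (1.84-fold, exact adjusted p = 0.0406 for both). Lyve1 was 2.39-fold higher relative to Prox1 on both day 3 and day 5, and 2.27-fold, 1.55-fold and 1.92-fold lower on days 10, 12 and 14 (exact adjusted p = 0.0406 each). The ligand Vegfc was lower relative to its close relative Vegfd, 1.92-fold on day 3 and 2.06-fold on day 5 (exact adjusted p = 0.0406), and on later days the ratio did not pass the test. These ratios were, with day 0 replicates 1 and 4 alone, 1.42-fold and 1.52-fold lower, and with replicates 2 and 3 alone 2.59-fold and 2.77-fold lower. Those of Lyve1 to Prox1 on days 3 and 5 were 3.15-fold and 3.14-fold higher with replicates 1 and 4 alone and 1.82-fold and 1.81-fold higher with replicates 2 and 3 alone. On days 10, 12 and 14 they were 1.72-fold, 1.18-fold and 1.46-fold lower with the first pair and 2.98-fold, 2.04-fold and 2.53-fold lower with the second. The ratio of Mmrn1 to Prox1 on days 10 and 14 was 1.82-fold and 1.47-fold lower with the first pair and 2.84-fold and 2.29-fold lower with the second.

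Because resident macrophages can also carry Lyve1, their markers Mrc1, Cd163, F13a1, Folr2, Cbr2 and Timd4 were followed beside it. Their summed level was 562 to 1434 CPM on day 0, 1612 to 1793 CPM on day 3, 1667 to 1828 CPM on day 5 and 997 to 1127 CPM on day 7. It was 344 to 363 CPM on day 10, 618 to 695 CPM on day 12 and 190 to 203 CPM on day 14. Like Lyve1 the list was high on day 5, low on day 10, higher again on day 12 and lowest on day 14, and none of its genes was at 0 on any day. Of the 6 genes, 6 rose from day 10 to day 12 and 6 fell from day 12 to day 14. The ratio of Lyve1 to Mrc1, the mannose receptor, was below day 0 on days 3, 5, 7 and 10 (3.07-fold, 1.99-fold, 2.78-fold and 2.12-fold, exact permutation, adjusted p = 0.0406 each). On days 12 and 14 its log2 difference from day 0 was -0.052 (adjusted p = 0.586) and 0.029 (adjusted p = 0.857). The share of Lyve1 that came from macrophages was not tested.

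The general macrophage markers Adgre1, Cd68, Csf1r, Lyz2, Mertk and Fcgr1 did not share the day 12 return. They summed to 1408 to 2066 CPM on day 0, 3816 to 4062 CPM on day 3, 1954 to 2158 CPM on day 10, 1550 to 1738 CPM on day 12 and 763 to 814 CPM on day 14, and from day 10 to day 12 2 of the 6 fell (Cd68 and Lyz2) and 4 were not called. Hair follicle markers (Krt25, Krt27, Krt71, Krt73, Shh and Lef1) moved with Prox1 on several days. They summed to 182 to 1360 CPM on day 0, 3.72 to 9.18 CPM on day 3 (6 of 6 lower than day 0), 7.87 to 13 CPM on day 5 (5 of 6 lower) and 749 to 1013 CPM on day 7, when 6 of 6 were higher than on day 5 and Prox1 rose as well. From 222 to 256 CPM on day 10 they went to 3049 to 4104 CPM on day 12, with 5 of 6 called higher, and on day 14, when the lymphatic transcripts were low, they were at 2512 to 3365 CPM. Fibroblast markers summed to 15973 to 19138 CPM on day 14 against 39565 to 46045 CPM on day 12, and all 6 fell between these days together with the 5 genes. Adipocyte markers, at 2255 to 2386 CPM on day 12 and 3963 to 4140 CPM on day 14, rose in 5 of 5 genes between them. Muscle markers summed to 18077 to 31738 CPM on day 0 and 4058 to 11034 CPM on wound days. The part of these cell types in the changes of the 5 genes was not tested.

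**Figure D4:**
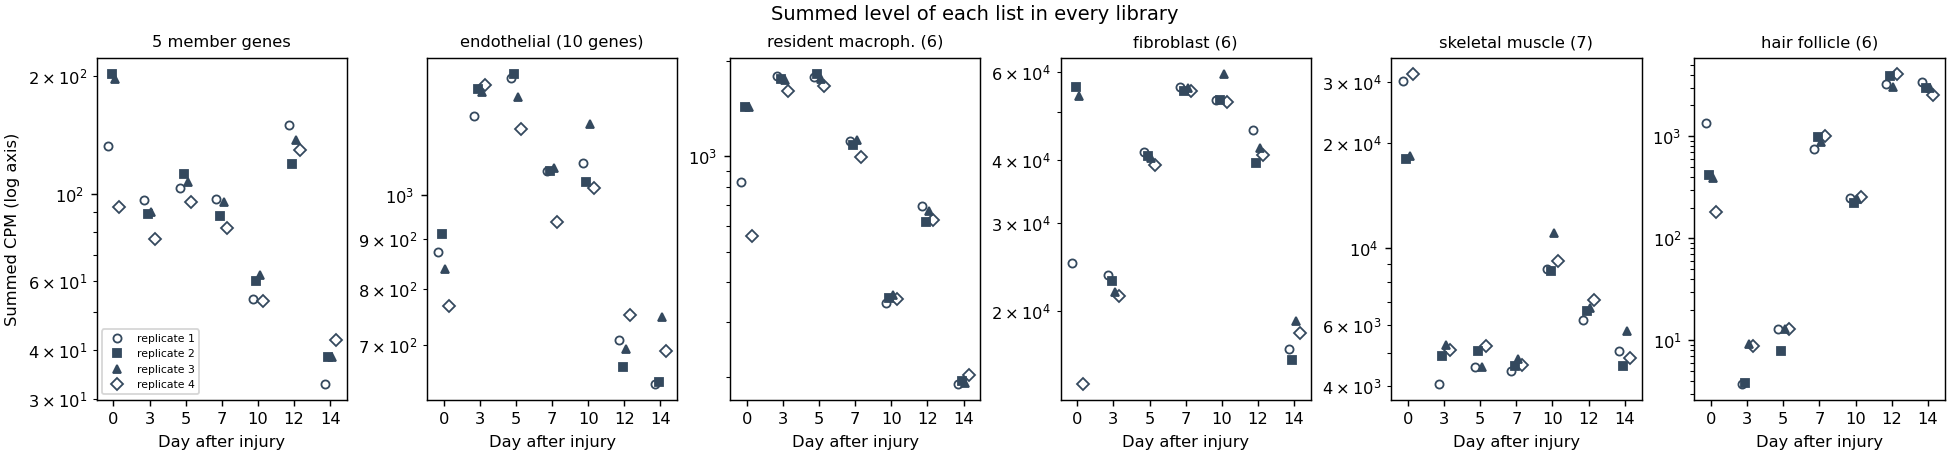
Summed CPM (log axis, own range in each panel) of the 5 genes and of 5 marker lists in each library by day after injury. Symbols give the replicate number. Day 0 replicates 1 and 4 (open symbols) lie below replicates 2 and 3 in the 5 genes, resident macrophages and fibroblasts, and the resident macrophage panel shares the low day 10, higher day 12 and lowest day 14 of the 5 genes.

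A further 22 genes of lymphatic growth and identity, listed with earlier results of these data known, were more often higher than lower early on. On days 3, 5 and 7, 13 of the 22 were higher than day 0 and 7 lower, while 31.8%, 29% and 25.6% of all genes were higher and 34.8%, 30.6% and 24.8% lower. On these days 7, 7 and 6 of the 10 general endothelial markers were higher and 2, 1 and 1 lower. Many of the 22 are not confined to lymphatic cells, and the cells behind these changes were not tested. On day 10, 10 were higher and 6 lower (23.5% and 26.9% of all genes), on day 12, 6 and 8 (21.7% and 25.6%), and on day 14, 3 and 16 (28.2% and 34.5%). The median log2 fold change was 0.52, 0.74, 0.58, 0.22, -0.097 and -0.68 on the 6 days, whereas over all genes tested it lay between -0.056 and 0.0024. From day 12 to day 14 none of the 22 was higher (19.9% of all genes), by edgeR at an adjusted or unadjusted p under 0.05, and 15 were lower (25.3%). The day 12 balance turned to 10 higher and 5 lower with limma on log2(FPKM + 0.1), by which 34.2% of all genes were higher and 15.8% lower. Higher on day 14 were 1 gene with day 0 replicates 2 and 3 alone (28.9% of all genes) and 6 with replicates 1 and 4 alone (29.2%).

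Of the 5 listed genes for ligands and for proteins that act on them, Vegfc not included, 4, 5, 5 and 4 were higher on days 3, 5, 7 and 10 and none was lower. On day 12, 2 were higher, and on day 14, 1 was higher and 3 were lower. Vegfd, the other VEGFR-3 ligand, rose by 0.68, 0.81, 0.59 and 0.29 on the log2 scale on days 3, 5, 7 and 10 and was lower on day 14 (-0.79). Ccbe1, a secreted cofactor needed to activate VEGF-C, rose to 1.85 ± 0.102 on day 10 (3.60-fold; 5.46 to 6.06 FPKM against 1.34 to 1.84 on day 0, edgeR adjusted p = 2.43e-14) and was lower on day 14 (-0.79). Adamts3, the protease that cleaves VEGF-C, was higher on all 6 days, by 2.09 on day 12 and 2.10 on day 14, but at a very low level (24 to 49 counts on day 0 and 129 to 182 on day 14). Adamts14, a related protease, was called higher on days 5, 7 and 10 (1.33 on day 10) and lower on day 14 (-0.57), and Svep1, an extracellular matrix protein needed for lymphatic remodelling, on days 3, 5 and 7 (1.66, 1.07 and 0.68). So the processing genes Ccbe1 and Adamts3 were higher on days on which Vegfc itself had no called change in the fit with TMM.

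Of the 5 receptors, 4 were higher on days 3 and 5, 1 was higher and 3 were lower on day 14, and of the 2 angiopoietins both were higher on day 3 and both lower on day 14. Nrp2, the coreceptor of VEGFR-3, was higher on all 6 days (0.19 to 0.82), Tie1 on days 3 to 10 (0.63 to 0.92), with lower levels on days 12 (-0.28) and 14 (-0.22), and Kdr, which encodes VEGFR-2, on days 3, 5 and 7 (0.68, 0.78 and 0.55). Itga9, an integrin of lymphatic valves, was higher on days 3 and 5 and lower on day 14 (2.00-fold), and Tek, which encodes the angiopoietin receptor Tie2, was called on days 12 and 14 only, as lower (-0.59 and -0.93). Angpt2 was higher on days 3 to 12 (1.15 on days 3 and 5) and Angpt1 on days 3 and 7 (0.43 and 0.57), and both were lower on day 14 (-0.33 and -0.35).

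Of the transcription factors, only Sox18, which switches on Prox1 during development, was higher, on days 3, 5, 7, 10 and 14 (0.74, 0.98, 0.75, 1.14 and 0.37). Nr2f2 (COUP-TFII, a partner of Prox1) was lower on days 3, 5, 7, 12 and 14 (-0.60 to -0.25 before day 14 and -0.82 on it). Foxc2 and Gata2, regulators of lymphatic valves, and Nfatc1 were lower on days 3, 5, 7, 10 and 14, Gata2 and Nfatc1 on day 12 as well. Foxc2 reached -1.77 on day 14 at 14 to 33 counts a library, and Gata2 -1.45.

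The surface and secreted markers split into 2 directions. Reln, a glycoprotein secreted by lymphatic endothelium, had 3.58 to 4.01 FPKM on day 0 and 0.839 to 1.04 FPKM on day 3, when it was 3.79-fold lower (-1.92 ± 0.145, edgeR adjusted p = 3.42e-12). It rose 2.06-fold from day 10 to day 12 (adjusted p = 8.9e-07) and fell 2.73-fold from day 12 to day 14 (adjusted p = 5.41e-09), steps that Prox1 and Mmrn1 made too. Ccl21a, a chemokine with which lymphatic vessels attract dendritic cells, behaved alike, with -1.15, -1.99, -0.44 and -2.07 on days 3, 10, 12 and 14, a rise of 1.55 from day 10 to day 12 and a fall of 1.63 to day 14, but near-identical copies of this gene exist in the mouse genome and its counts are uncertain. Ackr2, a decoy chemokine receptor, was lower on all 6 days (-1.99 to -0.93). Pdpn (podoplanin), which activated fibroblasts and keratinocytes also make, rose 4.18-fold on day 3 (112 to 124 FPKM against 22.3 to 34.7 on day 0) and was lower only on day 14 (-0.31), and the matrix glycoprotein Emilin1 rose 4.52-fold on day 3 and was higher through day 12. Reln and Ccl21a had the 2 lowest values of the 22 on days 5, 7 and 10.

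**Figure D5:**
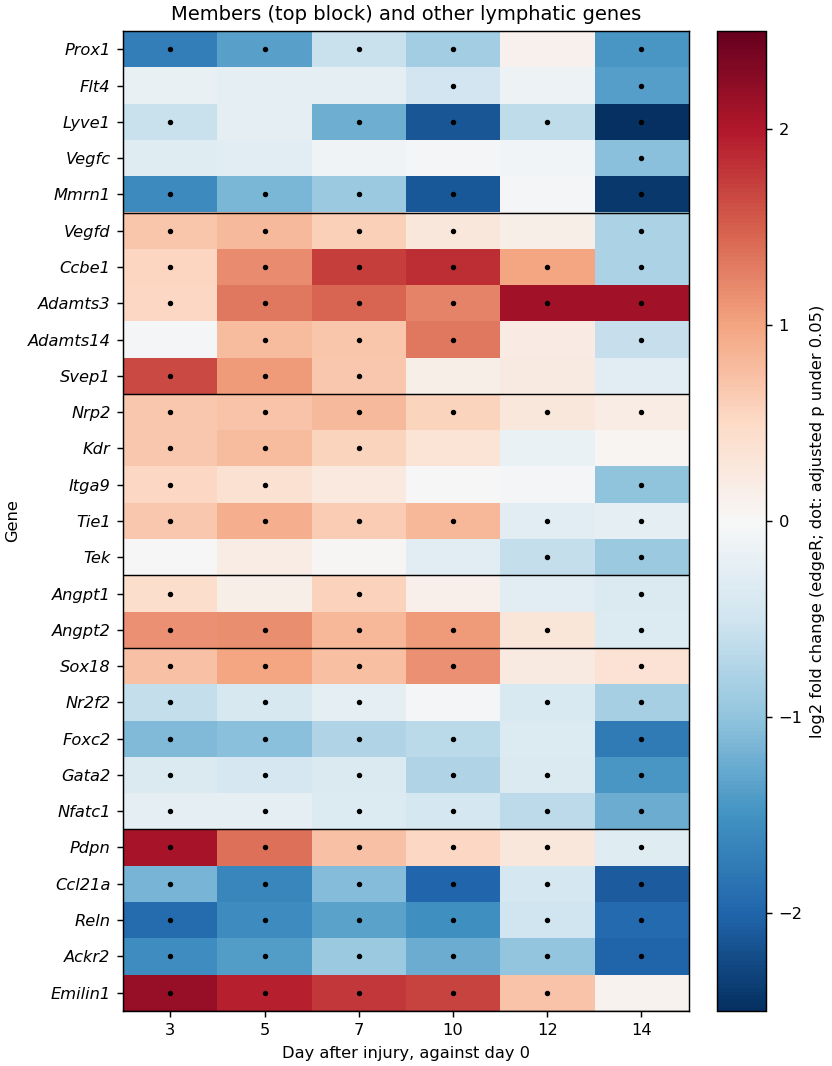
Log2 fold change against day 0 of the 5 genes (top block) and of the other 22 lymphatic genes, grouped as ligands and their processing, receptors, angiopoietins, transcription factors and surface or secreted markers, on each wound day. Dots mark an adjusted p under 0.05. Red prevails in the ligand and receptor blocks on days 3 to 10 and blue in most genes on day 14, while Reln and Ccl21a share the early blue of Prox1 and Mmrn1.

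The genes whose log2 CPM was most like that of each of the 5 over the 28 libraries, among 14684 genes with a mean of at least 1 CPM, are given as a description, since all genes share the libraries, their composition and the 7 days. For Prox1 they were Ntn1 (Pearson r = 0.942), Ston1 (0.932) and Reck (0.925), and for Flt4 they were Tgfbr3 (0.943), Mapre2 (0.932) and Loxl4 (0.924). For Lyve1 they were Cd209b (0.951), Gas6 (0.937) and Ly6c1 (0.935), the first of which encodes a lectin of macrophages and dendritic cells. Vegfc had less close neighbours in Tmeff2 (0.889), Snhg18 (0.885) and Ndn (0.883), and Mmrn1 had Pcolce2 (0.954), Flg2 (0.950) and Skint6 (0.946). None of the 5 was among the 3 nearest of another.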

How the data were processed

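Total RNA of 28 skin libraries, 4 per time point, was analysed from gene-level tables. The authors deposited raw counts per gene symbol, and separately FPKM values of these genes. Each deposited FPKM value equalled the count divided by a fixed gene length and the library total. TRIzol was used for extraction and the VAHTS Universal V6 kit for library preparation. The submitters' processing notes name fastp, R 3.2.0 and mm10, and the study's methods name DESeq2. The aligner, the counting tool, the annotation and the strand setting are not given in the sources used here, so that reads of overlapping or near-identical genes may be shared. All columns were mapped to samples by their names.

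Counts were fitted in edgeR 4.0.16 under R 4.3.3 from TMM-normalized counts of genes kept by filterByExpr. It held 28 libraries and no covariate, and glmQLFTest was two-sided (21 residual degrees of freedom), with Benjamini-Hochberg adjustment over 18107 genes. Ratios used counts plus 0.5 and exact two-sided permutation tests. CPM on the log2 scale used a prior count of 2. Scripts were tested on simulated data. The named genes were the 5 members, a list of 22 lymphatic genes, the 3 genes nearest to each member over the libraries, and cell type markers. Members and lists were chosen with earlier results of these data known.

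Alternatives were DESeq2 1.42.0, its size factors within edgeR, scaling by the upper quartile or by library totals, removal of the filter, a minimum of 10 counts per library, limma 3.58.1 on log2(FPKM + 1) or log2(FPKM + 0.1), fits of 8 libraries, the replicate number as a block, Xist as a covariate, the study's criteria, and each library left out. Fits and ratios with day 0 replicates 2 and 3 or 1 and 4 alone and a fit of the 24 wound libraries were added after the data were seen. The labels number replicates but name no animals, so p-values measure the spread between these libraries, which may be partly technical. Intervals of fold changes rest on this spread. Counts of the members, at least 77 per library, were well above the 3 counts that a count of 0 allows, a limit that covers counting error only.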

Additional observations from a re-analysis of the deposited data

Results flagged for a closer look

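Day 7 replicate 4 stood apart from the other 3 libraries of its day in 2 of the 5 genes. Its Prox1 level was 2.26 log2 CPM (187 counts) against 2.67 to 2.75 in the others, a gap of 0.848 of the range of the 4 libraries. Its Flt4 level was 4.39 log2 CPM (825 counts) against 4.56 to 4.57, a gap of 0.953 of the range. Of 35 groups of 4 libraries examined this way, chance alone would mark about 1.8 if the groups were independent. The 5 genes share their libraries, so this number cannot tell whether day 7 replicate 4 is unusual. Leaving this library out changed no call of Prox1 or Flt4 against day 0 or between neighbouring days.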

How the results depend on the processing

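Of 776 fold changes and counts recomputed under settings other than leaving out 1 library, 694 kept their direction and call, and of 632 with 1 library left out, 596 did. Of 540 recomputed ratios 467 kept their direction and their call by the unadjusted permutation p (with a pair of day 0 libraries, their direction alone), 49 lost the call, 4 gained it and 20 changed sign. The cause of the changes was not tested. With the 8 libraries alone, Flt4 on day 10 (-0.47) and Lyve1 on days 3 (-0.59) and 12 (-0.63) lost their calls, leaving 0 members lower on day 12. With limma on log2(FPKM + 0.1), day 12 values were 0.040 for Flt4, -0.38 for Lyve1, 0.19 for Mmrn1 and 0.13 for Vegfc, Vegfc on day 10 was 0.053, 0 members were lower on day 12, and 10 pathway genes were higher and 5 lower on day 12. On log2(FPKM + 1) they were 0.029, -0.37, 0.17 and 0.10, with 0.036 for Vegfc on day 10 and again 0 members lower on day 12. Without composition normalization, day 12 values were 0.0095 for Flt4, 0.11 for Mmrn1 and 0.084 for Vegfc, Vegfc was 0.0043 on day 10, and Vegfc on day 3 was called (-0.36), as it was with upper quartile normalization (-0.40). With day 0 replicates 2 and 3 alone, Flt4 was -0.45, -0.48, -0.48 and -0.40 on days 3, 5, 7 and 12, Vegfc -0.62, -0.59, -0.40, -0.36 and -0.37 on days 3 to 12, Lyve1 -0.66 on day 5, Mmrn1 -0.39 and Prox1 -0.015 on day 12, members lower numbered 5, 5, 5 and 4 on days 3, 5, 7 and 12, and pathway genes higher on day 14 numbered 1. With replicates 1 and 4 alone, Flt4 was 0.19, 0.12, 0.11, -0.15 and 0.21 on days 3 to 12, Vegfc 0.15, 0.15, 0.33, 0.36 and 0.37, Lyve1 0.096, 0.38 and -0.0059 on days 3, 5 and 12, Prox1 -0.42 on day 7 and Mmrn1 0.47 on day 12. Members higher then numbered 1 on days 5 and 12, members lower on day 12 numbered 0, and pathway genes higher on day 14 numbered 6. From the 24 wound libraries alone, Lyve1 (0.32) and Mmrn1 (0.46) from day 3 to day 5 and Flt4 from day 10 to day 12 (0.35) were called, and Flt4 was -0.00021 from day 5 to day 7. By the study's criteria, members lower numbered 0, 0, 2, 0 and 2 on days 5, 7, 10, 12 and 14. Pathway genes higher numbered 3, 1, 2, 2, 1 and 1 on days 3, 5, 7, 10, 12 and 14, and lower 2, 2, 0, 2, 0 and 4. The replicate numbers of the labels did not pair the libraries, since of 84 same-numbered pairs 1 correlated over 0.1 (r from -0.0762 to 0.177). The replicate block changed 1 call, Flt4 from day 10 to day 12 (0.36).

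With each library left out in turn, values against day 0 ranged for Flt4 on days 3, 5 and 7 from -0.28 to -0.077, -0.35 to -0.11 and -0.37 to -0.11. For Vegfc they ranged from -0.42 to -0.14, -0.43 to -0.12, -0.25 to 0.083, -0.21 to 0.12 and -0.21 to 0.11 on days 3, 5, 7, 10 and 12, for Lyve1 on day 5 from -0.43 to -0.029 and for Mmrn1 on day 12 from -0.22 to 0.12. Members lower ranged from 3 to 5 on day 3 and from 2 to 5 on day 5. From day 3 to day 5, Prox1 ranged from 0.24 to 0.54, Flt4 from -0.12 to 0.075, Vegfc from -0.089 to 0.084 and Mmrn1 from 0.34 to 0.55. Flt4 ranged from -0.11 to 0.068 from day 5 to day 7 and from 0.27 to 0.42 from day 10 to day 12, and Vegfc from -0.060 to 0.10 from day 7 to day 10 and from -0.076 to 0.090 from day 10 to day 12. Log2 ratios that changed sign, none of them called, were Flt4 over Pecam1 and Cdh5 on day 12 (-0.011 to 0.17), Lyve1 over Mrc1 on day 14 (-0.040 to 0.10), Mmrn1 over Prox1 on days 3 (-8.4e-05 to 0.33) and 12 (-0.25 to 0.078) and Vegfc over Vegfd on days 12 (-0.38 to 0.055) and 14 (-0.43 to 0.0015). With 1 library left out, Lyve1 over Prox1 on days 3, 12 and 14 lost its call in 4 of 8 runs. The same held for Mmrn1 over Prox1 on days 10 and 14 and Flt4 over Prox1 on days 7 and 10. It also held for Vegfc over Vegfd on days 3 and 5. Relative to Pecam1 and Cdh5 it held for Prox1 on day 12 and Lyve1 on day 5. With day 0 replicates 2 and 3 alone, log2 ratios turned to -0.10 for Flt4 and -0.099 for Mmrn1 over Pecam1 and Cdh5 on day 12, -0.022 for Lyve1 over Mrc1 and -0.061 for Flt4 over Prox1 on day 14 and -0.13 for Mmrn1 over Prox1 on day 3. With replicates 1 and 4 alone they turned to 0.062 for Lyve1 over Pecam1 and Cdh5 on day 12, 0.016 and 0.26 for Mmrn1 over Prox1 on days 7 and 12 and 0.15, 0.29 and 0.23 for Vegfc over Vegfd on days 10, 12 and 14. Among the 5 genes the lowest count in any library was 77, of Prox1.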
